A study of Mus musculus with 6 samples.

Results

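The miR-148 and miR-152 family holds the products of 3 mouse hairpins, miR-148a, miR-148b and miR-152, whose 3p strands carry one seed, bases 2 to 8 from the 5′ end. Counts of 5 of its mature strands (miR-148a-3p, miR-148a-5p, miR-148b-3p, miR-148b-5p and miR-152-3p) were taken by name from tables of 1906 miRNAs, and all 5 were found. The family was chosen by its EVs-against-cells values, namely the contrast between a higher miR-148a-3p and its paralogues, so that contrast is described here without a test. The libraries came from primary cultures of oligodendrocytes, which make myelin in brain and spinal cord. These were prepared from day 14 embryos of the C57BL/6N strain and grown in Sato medium with 1% horse serum. The EVs group (3 libraries, 5 to 6 days in vitro) is the 100 000 g pellet from medium of washed cultures held for 24 h in serum-free Sato with B27, a supplement used for neural cells. The Cells group (3 libraries, 6 days in vitro) is whole cells of the same kind of culture. The labels describe no genetic change, and whether a replicate is a culture of its own is not stated in them. By its title, the study was concerned with miRNAs that supplements of serum-free media bring into such preparations. The pellet can hold particles other than vesicles, and with no library of medium alone analysed here, the comparison does not show where a miRNA came from.

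A miRNA guides the Argonaute protein to messenger RNAs that pair with its seed, which lowers their translation and stability, so strands with the same seed share most predicted targets. The messenger RNA of DNMT1, the maintenance DNA methyltransferase, is the best-known target of the miR-148 and miR-152 family. miR-148a is abundant in liver and in milk and acts on hepatic LDL receptor expression, and its mature sequence is the same in mouse, human and cattle. From each hairpin mainly the 3p strand is kept as the guide, and the 5p strand is the passenger.

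The 3 guide strands are shown because strands that differ by few bases had different values in cells and EVs. The capitals mark the seed, and the sequences and positions are those of RefSeq on GRCm38.p6, while the counts were made on NCBIM37 (mm9).
miR-148a-3p: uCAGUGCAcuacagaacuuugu
miR-148b-3p: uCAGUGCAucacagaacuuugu
miR-152-3p: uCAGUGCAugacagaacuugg

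Counted from 1 at the 5′ end, miR-148a-3p and miR-148b-3p are identical at 20 of 22 positions, and the changes from the first to the second are C9U and U10C, directly after the seed. From miR-148a-3p to miR-152-3p the changes over 21 positions are C9U, U10G and U20G, and from miR-148b-3p to miR-152-3p they are C10G and U20G. In the RefSeq table no mature mouse miRNA other than these 3 had the seed CAGUGCA. Since how mismatches and reads with several matches were counted is not given in the sources used here, exchange of reads between these strands was not tested.

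The passenger strands differ more from each other. They are shown because each guide strand is set against its passenger further on, again with bases 2 to 8 in capitals.
miR-148a-5p: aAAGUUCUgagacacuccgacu
miR-148b-5p: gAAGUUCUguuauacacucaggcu
miR-152-5p: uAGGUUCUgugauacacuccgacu

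The 3 hairpins lie apart in the genome. In GRCm38.p6, Mir148a lies on the minus strand of chromosome 6 from 51269812 to 51269910, and it overlaps no other gene of the GENCODE M21 basic set. Mir148b lies on the plus strand of chromosome 15 from 103285125 to 103285221, inside an intron of Copz1, a gene of the same strand for a coatomer zeta subunit. Mir152 lies on the plus strand of chromosome 11 from 96850393 to 96850465, inside an intron of Copz2, the paralogue of Copz1 and also on the same strand. No exon of either host gene overlaps the hairpin.

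Total counts were 313766 to 689475 in the EV libraries and 126910 to 202358 in the cell libraries, so 1 read was worth 1.45 to 3.19 and 4.94 to 7.88 CPM (reads per 1000000 reads of the library). The oligodendrocyte miRNAs miR-219a-2-3p (23530 ± 5180 CPM in cells, SD, n = 3), miR-138-5p (4582 ± 785 CPM) and miR-338-5p (4037 ± 378 CPM) were abundant in the cells. miR-219b-5p of the same list was at 0 in the cell libraries. The cell libraries also held miR-128-3p, listed here as a neuron marker, at 31370 ± 11280 CPM, above each of these oligodendrocyte miRNAs. miR-124-3p, a neuron-specific miRNA, stood at 9453 ± 3476 CPM and the myeloid miR-146a-5p at 2320 ± 1124 CPM. The purity of the cultures was not tested. In such bulk samples, fewer cells of a type and less RNA per cell cannot be told apart.

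miR-148a-3p was the member with the large difference. It stood at 7123, 6336 and 9021 CPM in EVs replicates 1, 2 and 3 (3070, 1988 and 6220 reads). In Cells replicates 1, 2 and 3 it stood at 1005, 906 and 1117 CPM (157, 115 and 226 reads). The lowest EV library was far above the highest cell library, and it moved from rank 84 to 93 among all miRNAs in the cell libraries to rank 27 to 37 in the EV libraries. With reads pooled over the 3 libraries of a group, its share of reads was 7.67 times as high in EVs (95% exact binomial interval of counting error, 7.01 to 8.40). The log2 fold change of EVs over cells was 2.41 (SE 0.21) in edgeR's quasi-likelihood fit with trimmed-mean (TMM) normalization. It was 2.89 with library size only, and the pooled share is likewise not scaled by TMM. The fit covered all 336 miRNAs that passed edgeR's filter on low counts, and the 2.41 was the eighth highest of them.

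miR-148b-3p, which differs from it by 2 bases, was at nearly the same level in both groups. It stood at 2362, 2668 and 3159 CPM in EVs replicates 1, 2 and 3. In Cells replicates 1, 2 and 3 it stood at 2318, 2246 and 3108 CPM. The groups overlapped, and replicate 3 was the highest library in both. Its pooled share was 1.07 times as high in EVs (counting interval 1.00 to 1.14). Its direction depended on the scaling. The log2 fold change was -0.37 (SE 0.21) with trimmed-mean (TMM) normalization and 0.093 with library size only, and it was called in neither fit. The same choice moved the median of all 336 miRNAs from 0.06 to 0.54, so relative to that median miR-148b-3p lay lower on both scales.

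miR-152-3p was the least abundant guide strand. It stood at 341, 249 and 402 CPM in EVs replicates 1, 2 and 3 (147, 78 and 277 reads). In Cells replicates 1, 2 and 3 it stood at 173, 118 and 188 CPM, which rested on 27, 15 and 38 reads. Each EV library lay above each cell library, although the counting interval of EVs replicate 2 (197 to 310 CPM) overlapped those of the 2 higher cell libraries (114 to 252 and 133 to 258 CPM). The log2 fold change was 0.55 (SE 0.26) with TMM, where it was not called, and 1.04 with library size only, where it was.

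**Figure D1:**
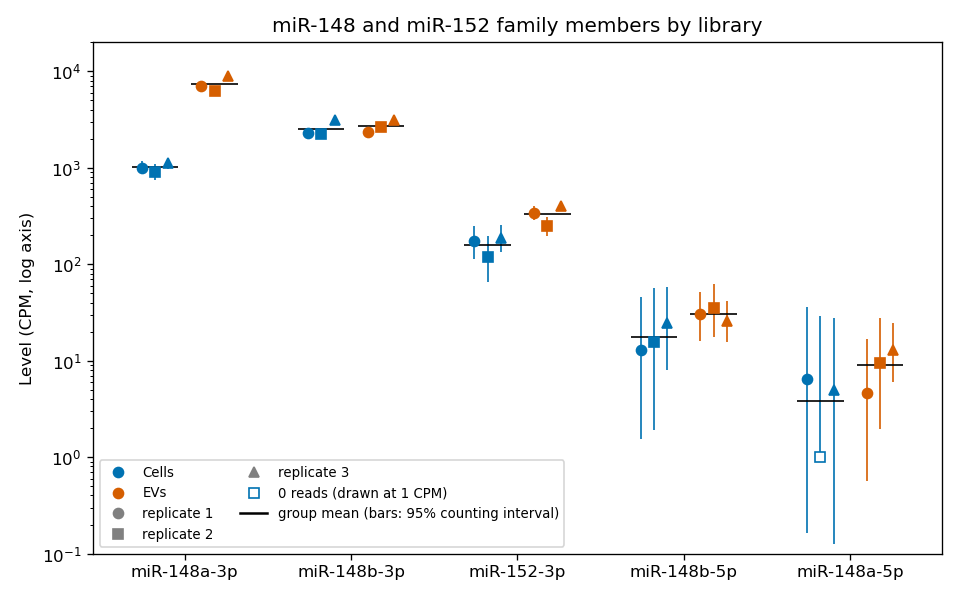
Level of the 5 family members in each of the 6 libraries, in CPM on a log axis, with blue for cells and orange for EVs, symbols for replicates, bars for the 95% exact binomial interval of counting error and a line for the group mean. The EV points of miR-148a-3p lie between 6336 and 9021 CPM, above all cell points at 906 to 1117 CPM, while the miR-148b-3p points of both groups lie between 2246 and 3159 CPM.

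Of the 5 members, the 3 guide strands passed the count filter and 1 of these, miR-148a-3p, was called at a Benjamini-Hochberg adjusted p below 0.05. Over all miRNAs tested 57.4% were called, 28.6% higher and 28.9% lower in EVs. The CPM values of the groups did not overlap for 2 of the 3 guide strands, both with EVs above, against 67.6% of all tested miRNAs, or 47.3% with EVs above. With library size only, 2 of the 3 guide strands were called higher, against 44.0% of all tested miRNAs. Since the members were chosen on this contrast, nothing is read from these counts.

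**Figure D2:**
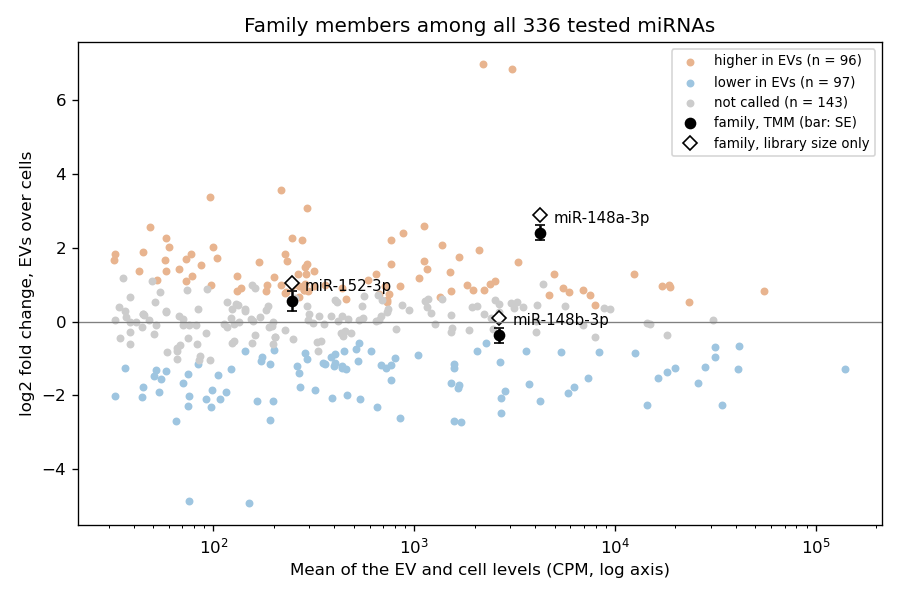
The log2 fold change of EVs over cells (TMM) against the mean of the EV and cell levels in CPM, on a log axis, for all 336 tested miRNAs, coloured by call. Black points with SE bars are the 3 guide strands at 2.41, 0.55 and -0.37, and open diamonds give the same strands with library size only (2.89, 1.04 and 0.093).

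The ratio between strands within a library does not depend on how libraries are scaled, and the order of the pair miR-148a-3p and miR-148b-3p was opposite in the 2 groups. In EVs replicates 1, 2 and 3 there were 3.02, 2.38 and 2.86 reads of miR-148a-3p for each read of miR-148b-3p. In Cells replicates 1, 2 and 3 there were 0.434, 0.404 and 0.359. miR-148a-3p was thus the more abundant of the pair in each EV library and the less abundant in each cell library. The log2 ratio was 1.45 ± 0.18 in EVs and -1.33 ± 0.14 in cells (SD, n = 3 each), a difference of 2.78, or a 6.86-fold shift of the ratio.

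miR-152-3p lay between its paralogues in this respect. The ratio of miR-148a-3p to miR-152-3p was 20.9, 25.5 and 22.4 in EVs replicates 1, 2 and 3 and 5.82, 7.67 and 5.95 in Cells replicates 1, 2 and 3. The log2 ratios differed by 1.85 between groups (4.51 ± 0.14 and 2.66 ± 0.21). For miR-152-3p against miR-148b-3p the ratio was 0.144, 0.0932 and 0.127 in EVs and 0.0746, 0.0526 and 0.0604 in cells. That is a difference of 0.93 on the log2 scale (-3.06 ± 0.32 and -3.98 ± 0.24), with no overlap between the library values of the groups. The cell ratios rest on 27, 15 and 38 reads of miR-152-3p, and counting error is not included in this separation. Replicate 2 was the lowest library for this ratio in both groups.

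The make-up of the shared-seed reads was accordingly different. miR-148a-3p held 70.9% ± 2.12 of the reads of the 3 guide strands in EVs and 27.3% ± 1.76 in cells. miR-148b-3p held 26.0% ± 2.51 and 68.5% ± 2.08, and miR-152-3p held 3.12% ± 0.40 and 4.27% ± 0.67. For miR-148a-3p the exact binomial intervals of single libraries ran from 66.8% to 73.8% in EVs and from 22.5% to 32.8% in cells, so they were far apart between groups. The miR-152-3p share overlapped between groups once counting error was included, with intervals from 2.13% to 4.07% in EVs and from 2.04% to 7.11% in cells.

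**Figure D3:**
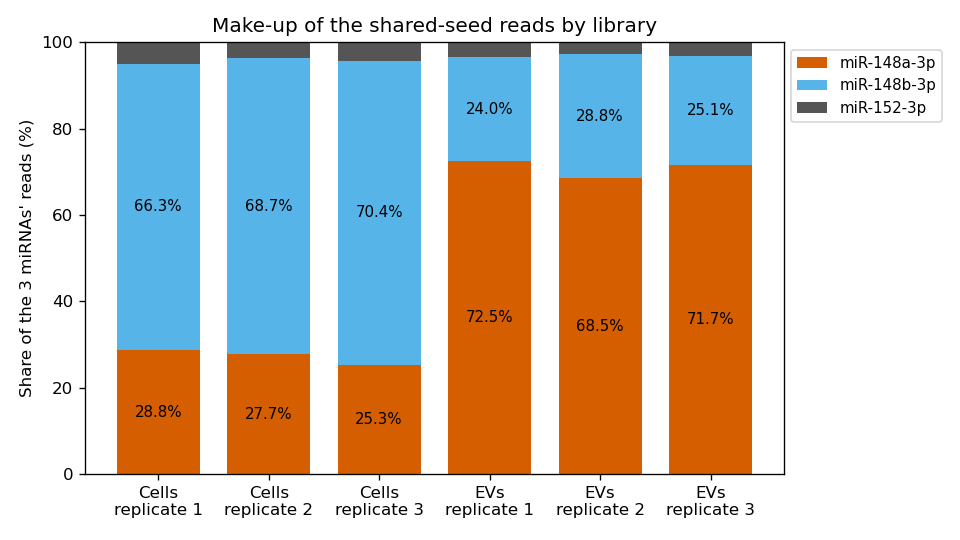
Share of each guide strand in the reads of the 3 guide strands, in percent, as a stacked bar for each of the 6 libraries. miR-148a-3p makes up 25.3% to 28.8% of the bar in cells and 68.5% to 72.5% in EVs, and miR-148b-3p takes the reverse course.

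Together the 3 guide strands, which offer the same seed, made up 0.983%, 0.925% and 1.26% of all counts in EVs replicates 1, 2 and 3. In Cells replicates 1, 2 and 3 they made up 0.350%, 0.327% and 0.441%. Each EV library was above each cell library. The summed level was 10550 ± 1780 CPM in the EV libraries against 3726 ± 605 in the cell libraries, a ratio of 2.83, which was 2.04 after division by the TMM factors. Most of the EV sum was miR-148a-3p and most of the cell sum was miR-148b-3p.

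The passenger strands were rare and none passed the filter. miR-148b-5p was the most abundant of them, with 30.2, 35.1 and 26.1 CPM in EVs replicates 1, 2 and 3 (13, 11 and 18 reads) and 12.8, 15.8 and 24.7 CPM in Cells replicates 1, 2 and 3 (2, 2 and 5 reads). The EV values were all above the cell values, but by little beside the counting error, and the pooled share ratio of 1.58 had an interval of 0.758 to 3.69. miR-148a-5p had 2, 3 and 9 reads in EVs replicates 1, 2 and 3 and 1, 0 and 1 in Cells replicates 1, 2 and 3. Its pooled share ratio was 2.37 with an interval of 0.544 to 21.5, which includes both no difference and the 7.67 of miR-148a-3p. The 0 in Cells replicate 2 allows up to 3 reads, or 23.6 CPM, while the exact two-sided interval drawn in the plot of levels by library reaches 29.1 CPM.

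Read as shares of their hairpins, the passengers were 14 of 11292 reads of miR-148a in EVs (0.124%, exact interval 0.0678% to 0.208%) and 2 of 500 in cells (0.400%, 0.0485% to 1.44%). For miR-148b they were 42 of 4075 reads in EVs (1.03%, 0.744% to 1.39%) and 9 of 1285 in cells (0.700%, 0.321% to 1.33%). The intervals of the groups overlapped for both hairpins. In EVs the 5p share was lower for miR-148a than for miR-148b, with intervals that did not meet, and in cells the 2 hairpins could not be told apart. The remaining strand, miR-152-5p, is not among the 5 members and had 1, 2 and 1 reads in EVs replicates 1, 2 and 3 and 2, 1 and 3 in Cells replicates 1, 2 and 3. It made up 0.791% of miR-152 reads in EVs (0.216% to 2.01%) and 6.98% in cells (2.60% to 14.6%), from 4 and 6 reads.

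The mature strands are 21 to 24 nt long, so levels of different strands were compared without a length correction. Whether each read was a whole mature strand was not tested, and ligation and amplification differ between sequences. In EVs the order was miR-148a-3p, miR-148b-3p, miR-152-3p, miR-148b-5p, miR-148a-5p and miR-152-5p. In cells miR-148b-3p came first and miR-148a-3p next, and miR-152-5p came before miR-148a-5p. The library values of neighbouring guide strands did not overlap in either group. Those of the rarest strands did, miR-148a-5p and miR-152-5p in EVs and miR-148b-5p and miR-152-5p in cells, and there the order cannot be told. In cells miR-152-5p and miR-148a-5p did not overlap, but rested on 6 and 2 reads in all.

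Spread between replicates was moderate for the guide strands. The coefficient of variation of CPM was 18.4% for miR-148a-3p, 14.7% for miR-148b-3p and 23.3% for miR-152-3p in EVs, beside a median of 18.8% over all tested miRNAs. In cells it was 10.4%, 18.7% and 22.9%, beside a median of 24.0%. EVs replicate 3, the deepest library, was the highest EV library for all 3 guide strands, and Cells replicate 3 was the highest cell library for all 3.

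Likeness to each guide strand was measured over the libraries, as a description only, since over 3 EV and 3 cell libraries the measure mostly follows the EVs-against-cells difference on which the family was chosen. It was the root mean square difference over the 6 libraries between log2 CPM values centred on each miRNA's mean, so that 0 is the same pattern. For miR-148a-3p, miR-192-5p, a miRNA of liver and gut, was closest at 0.22, with 2343 ± 441 CPM in the EV libraries against 399.8 ± 86.1 in the cell libraries. miR-376a-3p (0.29) and miR-136-3p (0.29), from the imprinted Dlk1-Dio3 locus, followed.

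For miR-148b-3p the closest were miR-361-3p (0.14), miR-423-3p (0.19) and miR-138-1-3p (0.19), each at a similar level in the 2 groups. miR-423-3p, for example, stood at 2720 ± 391 CPM in the EV libraries against 2219 ± 352 in the cell libraries. For miR-152-3p they were miR-30a-5p (0.18), miR-182-5p (0.19) and miR-34a-5p (0.19). miR-34a-5p, which is induced by p53, stood at 717 ± 55.1 CPM in the EV libraries against 383 ± 118 in the cell libraries.

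Some strands, among them members of the miR-130 and miR-301 family, carry 6 bases of the family's seed shifted by 1 position, so that bases 2 to 7 of theirs are bases 3 to 8 of miR-148a-3p. The RefSeq table held 7 such mature strands, all in the count tables, of which 3 passed the filter, and these 3 were called higher in EVs, beside 28.6% of all tested miRNAs. miR-301b-3p was matched to no sequence there and is not among the 7, but it also passed the filter and was called higher (log2 fold change 1.11). miR-301a-3p stood at 3520 ± 628 CPM in the EV libraries against 676 ± 148 in the cell libraries (log2 fold change 1.94, SE 0.25). miR-130a-3p (1.12, SE 0.23) and miR-130b-3p (1.20, SE 0.30) were nearer to each other.

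The span of 2.78 between miR-148a-3p and miR-148b-3p was set beside those of other shared-seed families. Of the 336 tested miRNAs 297 had a RefSeq sequence, and among these 30 seeds were shared by 2 or more strands of different sequence. Tested miRNAs without a matched sequence were left out, so families may be missing and spans too narrow. For example, miR-23a-3p (-0.87) and miR-23b-3p (-2.70), and miR-30b-5p (1.09) and miR-30d-5p (-0.37), stand in none of the 30. The median span was 0.96, or 1.55 over the 12 seeds with 3 or more strands. By span the miR-148 family was the third of the 30. Above it stood the family of miR-25, miR-32 and miR-92 (4.22, from miR-32-5p at 2.56 to miR-92b-3p at -1.67) and the pair miR-708-5p and miR-28a-5p (2.80). Next below it was let-7 (2.75), which has 10 strands, and a span grows with the number of strands. The SE of the span was 0.30 for the miR-148 family, 0.53 for the widest family and 0.67 for let-7. miR-32-5p of the widest family was at 10.2 ± 2.5 CPM in cells, where 1 read was worth 4.94 to 7.88 CPM. The order by span is therefore uncertain. Wide spans thus occurred in other families too, and as the miR-148 family was picked for its contrast, its place in this order is a description.

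**Figure D4:**
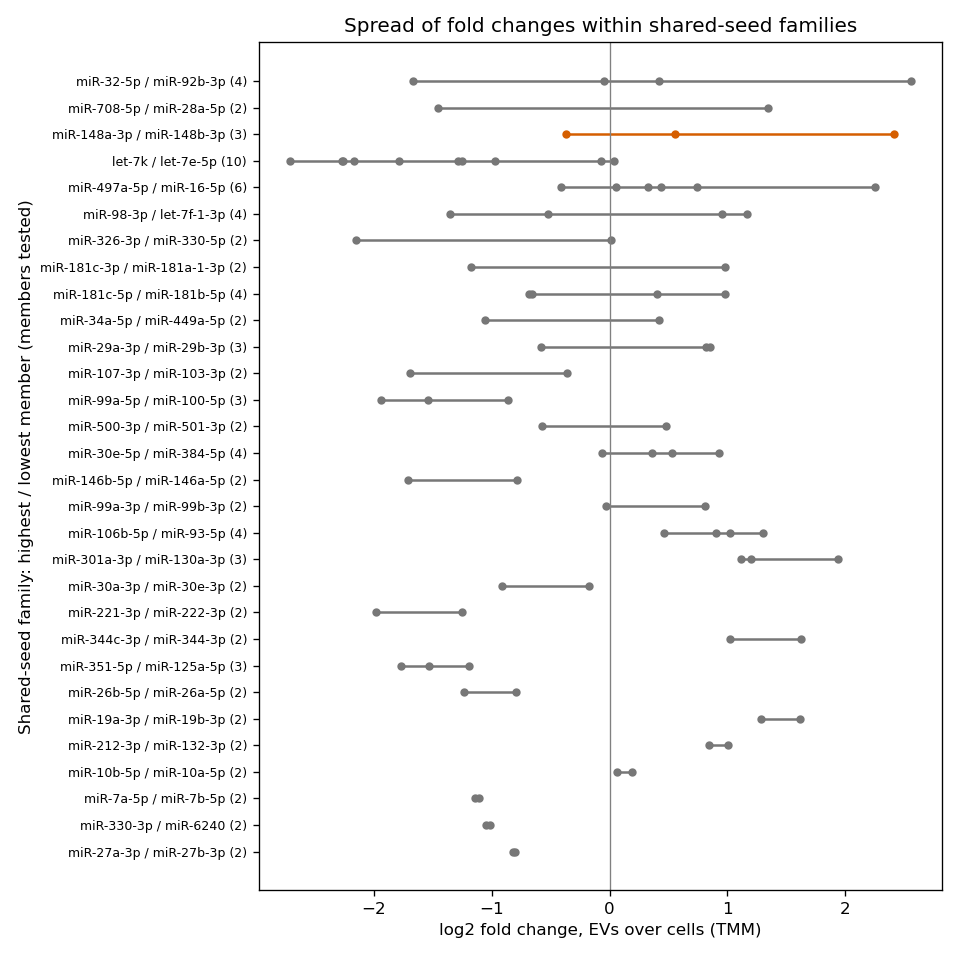
Log2 fold change of EVs over cells (TMM) of the tested strands with a RefSeq sequence in the 30 shared-seed families. Each family has 1 line from its lowest to its highest strand, named at the left with the number of strands and ordered by span. The miR-148 family, in orange, spans 2.78 from -0.37 to 2.41 with miR-152-3p at 0.55 between, and 2 families lie above it with spans of 4.22 and 2.80.

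Other miRNAs reported to act on DNA methyltransferase messenger RNAs were called in both directions. Of 8 listed and tested, 4 were called higher and 1 lower in EVs, beside 28.6% and 28.9% of all tested miRNAs. The share called in either direction was near the 57.4% of all tested miRNAs. Their median log2 fold change was 0.84, beside 0.06 over all tested miRNAs, or 1.31 beside 0.54 with library size only. miR-101a-3p stood at 27100 ± 3505 CPM in the EV libraries against 10040 ± 1000 in the cell libraries, a log2 fold change of 0.98 (SE 0.18). miR-29a-3p, whose family acts on the de novo methyltransferases, was at 3192 ± 400 and 1275 ± 266 CPM (0.86, SE 0.21). Of the same family, miR-29c-3p was called higher (0.82, SE 0.23), while miR-29b-3p had the opposite sign and was not called (-0.585, SE 0.28). miR-342-3p was at 5333 ± 661 and 2811 ± 350 CPM (0.46, SE 0.18) and was not called. miR-185-5p was the one called lower (-1.25, SE 0.31). miR-143-3p was called higher (1.76, SE 0.45) and miR-126a-3p was not called (0.86, SE 0.39). These also stand in the mural and endothelial lists below.

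The marker lists of other cell types hold few tested miRNAs, and their counts stand beside 28.6% of all tested miRNAs called higher and 28.9% called lower (44.0% higher with library size only). Of the hepatocyte list, 2 of 3 tested miRNAs were called higher in EVs and none lower, and the summed level of its 6 miRNAs was 6202 to 11230 CPM in the EV libraries against 563 to 701 in the cell libraries. miR-122-5p, which defines hepatocytes, was at 6074 ± 2085 CPM in the EV libraries against 38.9 ± 12.4 in the cell libraries. miR-802-3p was at 0 in the cell libraries and at only 0.773 ± 1.34 CPM in the EV libraries. As 1 read was worth 4.94 to 7.88 CPM in the cell libraries, that 0 shows no difference. miR-194-5p was tested but not called, and its log2 fold change was negative (-0.60, SE 0.26, with 186 ± 28.8 CPM in EVs and 209 ± 71.8 CPM in cells). Of the erythroid list, 3 of 3 tested were higher, with sums of 4406 to 8550 CPM in the EV libraries against 292 to 333 in the cell libraries, led by miR-451a (4368 ± 1572 and 27.6 ± 23.9 CPM). Its miR-144-5p was at 0 in the cell libraries. The 3 tested include miR-486a-5p and miR-486b-5p, with log2 fold changes of 2.20 and 2.22. How reads with several matches were counted is not given, so these may not be separate measurements.

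Of the mural and mesenchymal list, 4 of 4 tested were higher, with sums of 2588 to 5057 CPM and 370 to 1076 CPM, led by miR-143-3p. Its miR-199a-3p and miR-199b-3p (log2 fold changes 2.01 and 2.02) may likewise not be separate measurements. The endothelial list had 1 of 2 higher (sums of 182 to 303 and 63.0 to 93.9 CPM) and the neuron list 3 of 3 (89590 to 118700 and 35920 to 50820 CPM). The myeloid list went the other way, with 4 of 5 lower, none higher and sums of 612 to 1936 CPM in the EV libraries against 1592 to 4566 in the cell libraries. In the oligodendrocyte list 2 of 5 were higher and 3 lower, and the sums of 33570 to 36130 and 33980 to 43470 CPM overlapped. The part of any of these cell types in the level of miR-148a-3p was not tested.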

How the data were processed

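The authors deposited raw read counts, whole numbers per mature miRNA, in 1 table per library. The submitters' processing notes name bcl2fastq 1.8.4, cutadapt 1.7.1, Bowtie 0.12.8, featureCounts 1.4.6-p4 of Subread and the build NCBIM37 (mm9). Their settings, the removal of duplicates and the annotation of miRNAs are not given in the sources. Per the labels, RNA of 15 to 200 nt was sequenced.

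EVs and cells were compared on these counts with edgeR 4.0.16 in R 4.3.3 (filterByExpr with a minimum count of 10, TMM, glmQLFit and glmQLFTest with group as the only term, two-sided, Benjamini-Hochberg over 336 miRNAs, biological coefficient of variation 23.8%). The fitting code was also tested on simulated data. The p-values measure the spread between these libraries, which may be technical. CPM used total counts without TMM factors, and strand log2 ratios used a pseudocount of 0.5. Intervals are exact Clopper-Pearson at 95% and, like the 3-read limit for a count of 0, cover counting error only. They treat reads as independent, and as PCR reads are not independent molecules, they may be too narrow.

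Members and lists were chosen with earlier results of these data known. Named miRNAs were the family strands, the 3 nearest patterns of each guide strand (prior count 2), seed relatives, the widest shared-seed families and those next to this one, and members of the lists, with the most abundant given values. Others named are defining markers or exceptions within a list, picked with their values known.

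Departures from the group means correlated weakly between EV and cell libraries that share a replicate number (0.115, 0.106 and 0.256 over the tested miRNAs). Other pairs had -0.148 to 0.0213. With each group centred on its own mean, these values are tied to the former and are no independent baseline. A fit with the replicate number as a block was therefore an alternative. The others were library size only, upper-quartile factors, DESeq2 1.42.0, other filters, thinning to 126910 counts, leaving out each library, a pseudocount of 1 and summed counts.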

Additional observations from a re-analysis of the deposited data

How the results depend on the processing

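Of the alternatives run for the family, 1 setting changed a call or a direction among the guide strands. With library size only in place of TMM, miR-148b-3p had a log2 fold change of 0.093 in place of -0.37, and miR-152-3p was called higher at 1.04 in place of 0.55. The same setting called 148 miRNAs higher and 60 lower in EVs, in place of 96 and 97. TMM factors were 1.09 to 1.24 in EVs and 0.760 to 0.904 in cells, which gives this shift. With the replicate number as a block the guide strands were at 2.42 (miR-148a-3p), -0.37 (miR-148b-3p) and 0.57 (miR-152-3p), and this paired fit changed none of their calls, nor did DESeq2, upper-quartile factors, thinning or the other filters. With a library left out, miR-148a-3p lay between 2.28 and 2.47, miR-148b-3p between -0.51 and -0.26 and miR-152-3p between 0.36 and 0.67. The log2 ratio of miR-148a-3p to miR-148a-5p was 2.32 higher in EVs as a mean over libraries, 2.75 with a pseudocount of 1 and 1.69 from summed counts. It rests on 2 reads of miR-148a-5p in cells, which also limits any statement on the passenger strands.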
